A study of Homo sapiens with 12 samples.

Results

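The genes of the core spliceosome proteins were taken from the expression table by name: symbols that begin with SF3A, SF3B, SNRNP, PRPF or LSM and a digit, or with SNRP and a digit or a letter from A to G, together with BCAS2, CDC5L, PLRG1, U2AF1 and U2AF2, and without hyphenated names. This gave 58 of 23619 gene names, measured in all 12 libraries. Not every gene with such a name encodes a spliceosome protein. LSM10 and LSM11 belong to the U7 particle, LSM12, LSM14A and LSM14B are LSM-domain proteins outside the spliceosome, and SNRPD2P2 is named as a pseudogene. SNRPN, a close relative of SNRPB, falls outside the rule, and reads that the pair share may have been split between them. Likewise, several Sm and LSM genes have processed pseudogenes, and how shared reads were counted is not given in the sources used here.

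Cells of MOLT4, a leukemia line of human T-lymphoblastic origin, were exposed for 6 h to a compound at 250 nM, which was SNS-032, its derivative THAL-SNS-032, or NVP-2, or to 0.1% DMSO, the vehicle, with 3 libraries in each group. SNS-032 is an inhibitor of CDK9 and related kinases. CDK9 releases RNA polymerase II into productive elongation. THAL-SNS-032 carries SNS-032 on a linker to a thalidomide-type ligand of cereblon, a ubiquitin ligase receptor, and NVP-2 is a CDK9 inhibitor. All groups share the same line and time, so the data describe 1 leukemia line under short exposure.

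The spliceosome is assembled on each intron from small nuclear ribonucleoproteins (snRNPs), each an RNA with its proteins. Rings of Sm proteins bind the U1, U2, U4 and U5 RNAs, and a ring of LSM proteins binds U6. The U1 snRNP marks the 5′ splice site, the U2 snRNP with its SF3a and SF3b subunits marks the branch point with the help of the U2AF heterodimer, and the U4/U6.U5 tri-snRNP then joins. The PRP19 complex stabilises the catalytic form. A minor spliceosome with U11 and U12 removes a rare class of introns. Cells make these proteins constantly, and introns are removed largely while RNA polymerase II is still transcribing.

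Levels are FPKM, by definition fragments per kilobase of transcript corrected for sequencing depth, and so per length. They were used on the scale on which the table was deposited, which was set across libraries by steps not stated. On it, the totals over genes ranged from 588134 FPKM in NVP-2 replicate 1 to 3479200 FPKM in DMSO replicate 2. Changes are differences in mean log2(FPKM + 1), tested in 1 limma fit over the 4 groups with Benjamini-Hochberg adjustment over the 11381 genes whose mean was at least 1 FPKM, and called below an adjusted p of 0.05. Spike-in RNA added at lysis differed by -0.03 to 0.04 on the log2 scale between each library and the DMSO mean, whereas the median gene was lower with every compound. Whether the deposited scale was itself set on the spike-ins is not given in the sources used here, so their equal level is no independent check of that scale. In these bulk samples, fewer cells and less RNA per cell cannot be told apart. SNS-032 replicate 1 stood apart, with a median gene change of -2.32 against -1.68 and -1.77 in replicates 2 and 3. All 9 listed T-lineage markers were above 1 FPKM in DMSO (29.9 to 2045 FPKM), and of 15 markers of other lineages, CD79A and KRT8 were. The summed level of those 15 was 5.33 to 10.8 FPKM under SNS-032, 12 to 14 under THAL-SNS-032, 4.56 to 5.48 under NVP-2 and 12.7 to 14.4 in DMSO, and their part in the results was not tested. The labels do not say whether libraries of a group were separate cultures, and the p-values then reflect library-to-library spread, which may be technical.

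In DMSO the core spliceosome genes were highly expressed. Of the 58, 57 reached the mean of 1 FPKM needed for the test, and SNRPD2P2 stayed between 0.0910 and 0.104 FPKM in every library. The 57 had a median of 155 FPKM in DMSO, against 28 FPKM over all genes tested, and 38 of them exceeded 100 FPKM. The Sm ring was the most abundant group, led by SNRPB at 1355 ± 138 FPKM (SD, n = 3) and SNRPD2 at 1141 ± 121, with SNRPD1 lowest of the ring at 231 ± 14.5. U2AF1, which reads the AG at the 3′ splice site, had 914 ± 85.4 FPKM, LSM7 had 586 ± 45.1, and SNRPC of the U1 snRNP 353 ± 39.2. In the tri-snRNP, SNRNP40, a U5 protein, was highest at 197 ± 10.9 FPKM, and in the PRP19 complex it was PRPF19, a ubiquitin ligase, at 312 ± 38.4. SNRNP25 led the minor spliceosome proteins at 152 ± 18.7 FPKM. Lowest of all were PRPF40B at 6.03 ± 0.552 and LSM11 at 3.98 ± 1.11.

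All tested members were called lower than in DMSO under every compound. Limma called 57 of 57 lower under SNS-032, under THAL-SNS-032 and under NVP-2, where 94.6%, 94.8% and 97.1% of all genes tested were called lower, so the count by itself does not set these genes apart. In each of the 3 comparisons, all 3 treated libraries also lay below all 3 DMSO libraries for 57 of 57 members, as they did for 94.8%, 95.9% and 97.8% of all genes. The median member differed from DMSO by -2.13 under SNS-032, -2.09 under THAL-SNS-032 and -3.03 under NVP-2, beside -1.92, -1.90 and -2.54 for the median gene. With NVP-2, 38 of 57 members fell further than the median gene, and under SNS-032 and under THAL-SNS-032 it was 32. The log2(FPKM + 1) scale shrinks the falls of low genes. The median DMSO level was 155 FPKM for members and 28 FPKM for all genes tested. As a percentage of the DMSO mean, the median member kept 22.9% under SNS-032, 22.6% under THAL-SNS-032 and 10.9% under NVP-2. Over all genes tested these values were 22.1%, 22.1% and 12.1%, so the gap was small or turned. Falls of 8-fold or more on the log2(FPKM + 1) scale were called for 5 members under SNS-032, 8 under THAL-SNS-032 and 29 under NVP-2, where 10.6%, 13.8% and 32.1% of all genes fell as far. A gene with a low DMSO level cannot fall that far on this scale. How far this lowers the share of all genes was not tested, so these counts are a description only. Scaling each library to its own median removes the shift that all genes share, and then 26 members were called higher and 17 lower under SNS-032, 30 and 17 under THAL-SNS-032, and 22 and 28 under NVP-2. Of all genes tested, 52.6% were then higher and 31.1% lower under SNS-032, 57.2% and 29.2% under THAL-SNS-032, and 59.7% and 28.1% under NVP-2. On that scale the median gene still differed from DMSO by 0.25, 0.36 and 0.42. The 3 comparisons share the DMSO libraries. Without SNS-032 replicate 1, 57 members were still called lower under SNS-032, and the median member difference was -1.88.

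Added over the 58 genes, the level was 3290, 5625 and 5491 FPKM in the SNS-032 libraries, 4704, 5443 and 5097 under THAL-SNS-032, 2471, 2945 and 2431 under NVP-2 and 12982, 15139 and 15393 in DMSO. No treated library reached the lowest DMSO library, and the NVP-2 libraries were lowest. As a share of the total FPKM of all genes, the same sum was 0.416 ± 0.0202% under SNS-032, 0.384 ± 0.0171% under THAL-SNS-032, 0.408 ± 0.0109% under NVP-2 and 0.444 ± 0.0232% in DMSO (SD, n = 3). The mean share was highest in DMSO and lowest under THAL-SNS-032, but single libraries overlapped. SNS-032 replicate 2 (0.431%) lay above DMSO replicate 1 (0.427%), and THAL-SNS-032 replicate 3 (0.403%) above SNS-032 replicate 3 (0.393%). All THAL-SNS-032 and NVP-2 libraries lay below every DMSO library.

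**Figure D1:**
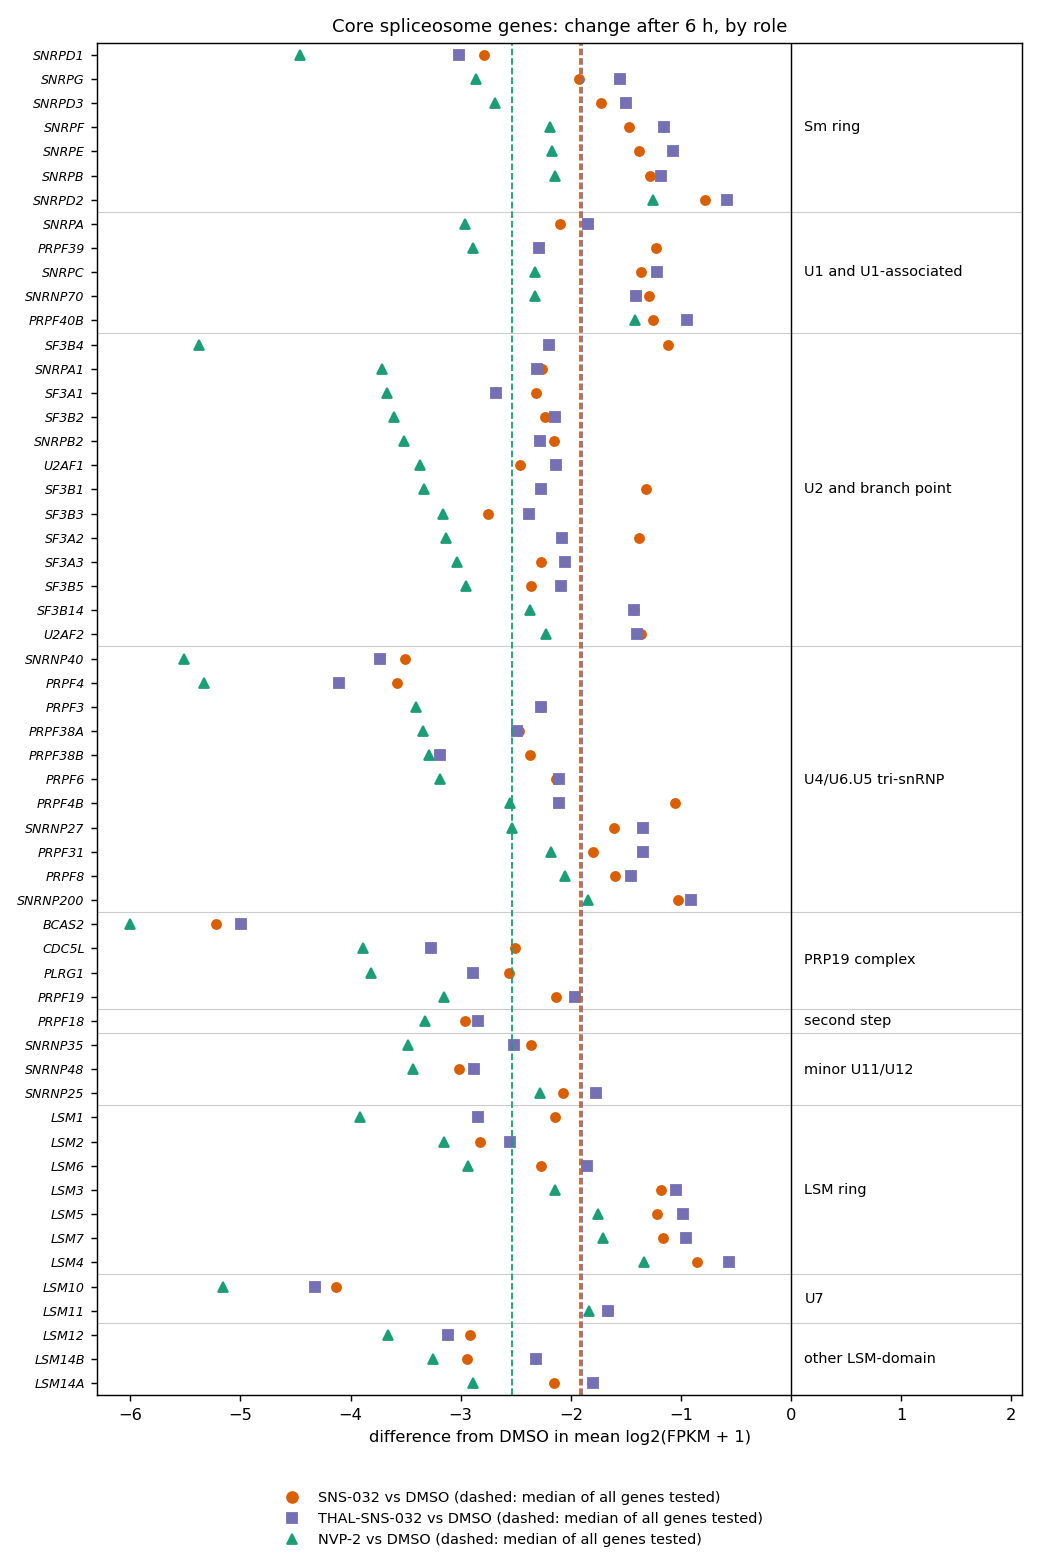
Difference from DMSO in mean log2(FPKM + 1) for 56 of the 57 tested core spliceosome genes (rows, grouped by role), with 1 point for each of the 3 compounds, and a dashed line at the median of all genes tested for each compound (-1.92, -1.90 and -2.54). All points lie below 0, BCAS2 lies farthest to the left, and SNRPD2 and LSM4 lie nearest to 0.

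The 5 members that fell most under NVP-2 were BCAS2, SNRNP40, SF3B4, PRPF4 and LSM10. BCAS2, a core subunit of the PRP19 complex, had 2.31, 4.16 and 3.21 FPKM under SNS-032, 3.74, 4.56 and 3.42 under THAL-SNS-032 and 1.18, 1.52 and 1.62 under NVP-2, against 145, 157 and 162 in DMSO. The treated libraries held between 0.931% and 2.52% of the DMSO mean on group average, the lowest of all members under each compound, and the compound groups lay far from DMSO. The difference was -5.23 under SNS-032 (SE 0.17, limma adjusted p = 1.1e-11), -4.99 under THAL-SNS-032 (adjusted p = 1.11e-11) and -6.00 under NVP-2 (adjusted p = 2.77e-12). In each comparison fewer than 1 in 100 of all genes tested fell further.

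SNRNP40 and PRPF4 are both tri-snRNP genes. SNRNP40 had 11.3, 21.3 and 18.1 FPKM under SNS-032, 12.6, 15.9 and 13.3 under THAL-SNS-032 and 3.14, 4.03 and 2.93 under NVP-2, against 184, 202 and 204 in DMSO. PRPF4, a protein of the U4/U6 particle that partners PRPF3, had 3.27, 7.39 and 5.65 FPKM under SNS-032, 2.90, 3.90 and 3.15 under THAL-SNS-032 and 0.810, 0.865 and 0.842 under NVP-2, against 68.6, 74.5 and 76.5 in DMSO. For both genes the NVP-2 libraries were the lowest and did not overlap any other group. The differences from DMSO were -3.51, -3.73 and -5.51 for SNRNP40 and -3.58, -4.11 and -5.33 for PRPF4 under SNS-032, under THAL-SNS-032 and under NVP-2 (SE 0.20 for each).

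LSM10 takes the place of an Sm protein in the U7 snRNP, which trims the 3′ ends of replication-dependent histone messages. It had 2.66, 6.39 and 4.26 FPKM under SNS-032, 3.53, 4.53 and 2.83 under THAL-SNS-032 and 1.61, 1.40 and 1.68 under NVP-2, against 80.0, 96.9 and 96.1 in DMSO, and differed from DMSO by -4.14, -4.32 and -5.16 (SE 0.22). Its U7 partner LSM11 was low throughout, at 0.565 ± 0.300 FPKM under SNS-032, 0.543 ± 0.0620 under THAL-SNS-032 and 0.376 ± 0.0633 under NVP-2, against 3.98 ± 1.11 in DMSO (SD, n = 3), near the floor of about 0.1 FPKM where the log2(FPKM + 1) scale understates change.

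SF3B4 differed between every pair of compounds. It encodes an RNA-binding subunit of SF3b that sits upstream of the branch point. SF3B4 had 49.1, 88.5 and 81.3 FPKM under SNS-032, 29.8, 38.2 and 31.1 under THAL-SNS-032 and 2.63, 3.01 and 2.63 under NVP-2, against 135, 168 and 163 in DMSO. The 4 groups did not overlap. It was among the members that fell least under SNS-032 (-1.12, SE 0.21), lay below the median gene under THAL-SNS-032 (-2.20) and was among the 5 lowest members under NVP-2 (-5.38), at 47.0%, 21.3% and 1.77% of the DMSO mean.

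**Figure D2:**
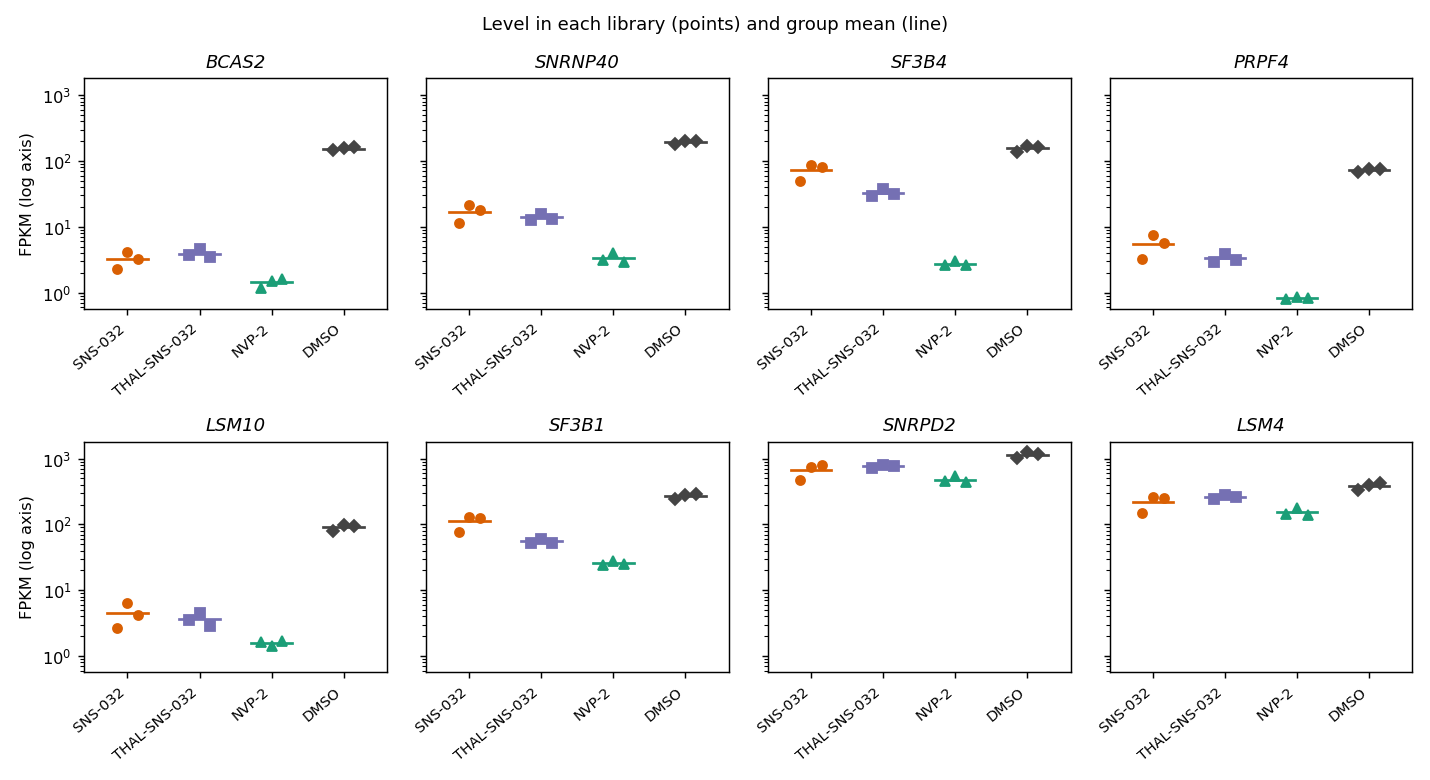
FPKM on a log axis in each library (points) with the group mean (line), for SNS-032, THAL-SNS-032, NVP-2 and DMSO from left to right, for 8 core spliceosome genes. BCAS2 is low under all 3 compounds, SF3B4 steps down from SNS-032 to THAL-SNS-032 to NVP-2 (means 73.0, 33.1 and 2.76 FPKM), and SNRPD2 and LSM4 stay closest to DMSO.

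SNRPD2, LSM4 and the helicase gene SNRNP200 were among the 6 members that fell least under SNS-032 and under THAL-SNS-032. SNRPD2, an Sm protein of the U1, U2, U4 and U5 rings, had 481, 746 and 808 FPKM under SNS-032, 715, 807 and 763 under THAL-SNS-032 and 449, 550 and 438 under NVP-2, against 1010, 1249 and 1164 in DMSO. LSM4 of the U6 ring had 149, 258 and 249 FPKM under SNS-032, 240, 280 and 262 under THAL-SNS-032 and 146, 175 and 138 under NVP-2, against 334, 404 and 424 in DMSO. Every treated library of both genes was below every DMSO library. The differences from DMSO were -0.78, -0.58 and -1.25 for SNRPD2 (SE 0.20) and -0.85, -0.56 and -1.33 for LSM4 (SE 0.21) under SNS-032, under THAL-SNS-032 and under NVP-2. The LSM4 call under THAL-SNS-032 (limma adjusted p = 0.0188) did not hold without DMSO replicate 2 (-0.53), without DMSO replicate 3 (-0.49) or without the first THAL-SNS-032 library (-0.51). SNRNP200, which unwinds the U4/U6 duplex, differed by -1.03, -0.91 and -1.84 (SE 0.20). After scaling each library to its own median, these 3 genes were higher with every compound than in DMSO, by 1.12 to 1.71.

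By the median of each role, among groups with at least 4 genes, the LSM ring kept the largest part of its DMSO level and the PRP19 complex the smallest, under each compound. Of 7 Sm genes, all called lower with every compound, the median kept 37.0% of its DMSO mean under SNS-032, 44.0% under THAL-SNS-032 and 21.9% under NVP-2. SNRPD1 kept the least in the ring. It had 33.8 ± 10.6 FPKM under SNS-032, 27.7 ± 2.30 under THAL-SNS-032 and 9.54 ± 0.734 under NVP-2, against 231 ± 14.5 in DMSO, or 4.13% of DMSO under NVP-2 where SNRPD2 kept 42.0%. The 7 LSM ring genes, which form the nuclear U6 ring and, with LSM1, the cytoplasmic ring that promotes decapping, kept a median of 43.4%, 48.5% and 22.5%. Within them LSM1 kept the least under NVP-2, at 6.12%. The ring is incomplete in the list, since LSM8 was not analysed here.

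The 6 U1 and U1-associated genes kept a median of 40.7% of DMSO under SNS-032, 32.6% under THAL-SNS-032 and 16.2% under NVP-2. The 13 U2 and branch point genes kept 21.6%, 22.3% and 9.60%, and ranged under NVP-2 between 1.77% for SF3B4 and 21.1%. U2AF1 was 169 ± 45.4 FPKM under SNS-032, 207 ± 17.6 under THAL-SNS-032 and 87.8 ± 8.99 under NVP-2, against 914 ± 85.4 in DMSO. The 11 genes grouped here with the tri-snRNP, which include PRPF38A, PRPF38B and the kinase gene PRPF4B, kept 22.8%, 21.8% and 10.2%. The 4 PRP19 complex genes kept a median of 16.0%, 10.0% and 4.87%. PRPF19 kept the most of the 4, at 23.1%, 25.3% and 10.9%, near the median of all members. CDC5L, a DNA- and RNA-binding subunit, had 37.0 ± 1.56 FPKM in DMSO. It had 5.90 ± 2.17, 2.96 ± 0.332 and 1.57 ± 0.171 FPKM under SNS-032, under THAL-SNS-032 and under NVP-2. The 3 minor spliceosome genes kept 16.6%, 14.4% and 7.33%, and PRPF18, which acts at the second catalytic step, 11%, 11.9% and 7.90%. Over all members the median was 22.9%, 22.6% and 10.9%, beside 22.1%, 22.1% and 12.1% for all genes tested.

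The difference of a member was set beside its DMSO level. Across the 57 genes, Spearman's rho between the log2 DMSO level and the difference was 0.31 under SNS-032, 0.45 under THAL-SNS-032 and 0.29 under NVP-2, and Pearson's r was 0.19, 0.30 and 0.12. The DMSO libraries enter both measures and the genes are not independent, so these are descriptions, with no value for the absence of a relation.

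The sequence just before the annotated start is shown for 3 of the genes that fell most, BCAS2, SNRNP40 and LSM10, and for SNRNP200, which kept much of its level. Each is the 150 bases upstream of the start, 5′ to 3′, from RefSeq on GRCh38.p14, which is not the hg19 build used for the expression values. Capitals mark matches, on either strand, to the CCAAT box (CCAAT), the TATA box (TATAAA) or the ETS core (CCGGAA), which do not overlap in these windows.
BCAS2, chr1:114581616-114581765, minus strand: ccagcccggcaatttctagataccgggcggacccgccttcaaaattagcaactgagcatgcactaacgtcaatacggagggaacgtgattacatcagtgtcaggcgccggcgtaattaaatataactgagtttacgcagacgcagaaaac
SNRNP40, chr1:31296789-31296938, minus strand: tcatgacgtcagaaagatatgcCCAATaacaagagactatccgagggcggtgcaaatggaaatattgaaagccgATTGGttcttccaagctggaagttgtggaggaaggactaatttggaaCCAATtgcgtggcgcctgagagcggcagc
LSM10, chr1:36397909-36398058, minus strand: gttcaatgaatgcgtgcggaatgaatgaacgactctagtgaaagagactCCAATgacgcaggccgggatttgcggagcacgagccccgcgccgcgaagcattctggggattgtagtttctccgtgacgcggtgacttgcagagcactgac
SNRNP200, chr2:96305547-96305696, minus strand: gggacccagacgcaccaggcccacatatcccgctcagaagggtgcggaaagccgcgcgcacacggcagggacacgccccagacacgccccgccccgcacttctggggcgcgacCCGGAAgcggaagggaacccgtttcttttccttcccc
The BCAS2 window held no match to the 3 motifs, SNRNP40 held 3 CCAAT boxes, LSM10 held 1 and SNRNP200 held 1 ETS core. Of 58 members, 49 had a promoter in the table, and in 21 of them (42.9%) the window of at least 1 start held an ETS core, against 26% of the 8139 tested genes with a promoter and 11.1% of all 35116 promoters. The CCAAT box was in 38.8% of members and 33.7% of tested genes, and the TATA box in 2.04% and 3.93% (23.5% and 6.71% of all promoters). A member or tested gene counted if any of its starts matched, whereas the 35116 promoters are single starts, so that share is not like for like. Members were also looked up by alternative names, and tested genes by exact symbol only. These are letter matches only.

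The degrader and its parent compound were compared at the same dose and time, 1 of 3 pairs of compounds. The added linker and cereblon ligand set THAL-SNS-032 apart in structure. Of 57 members, 9 were lower, 1 was higher and 47 did not pass the test under THAL-SNS-032, where 16.7% of all genes tested were called lower and 13.4% higher. The median member difference was 0.12, beside 0.14 for all genes. The 95% interval lay within 2-fold for 47 members, as for 76.9% of all genes. SNS-032 replicate 1 weighs on these values. Without it, 19 members were lower and 1 higher, where 30.1% and 13.2% of all genes were, and the median member difference turned to -0.12. With each library scaled to its own median, 14 were lower and 31 higher, beside 23.1% and 51.2% of all genes. With quantile normalization 19 were lower and 23 higher, beside 25.8% and 51.9%.

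The 9 lower calls were near the share of all genes called lower (16.7%), so the count does not set the members apart. Subunits of SF3a and SF3b, a U1-associated protein and a splicing kinase were among them. Of the 13 U2 and branch point genes, 3 were called lower and 10 did not pass. SF3B3, named after its value was seen, was the highest of the 13 (0.37). It had 13.8, 15.3 and 13.6 FPKM under THAL-SNS-032 and 7.48, 13.0 and 12.8 under SNS-032. The 8 lower genes named here also passed as lower under both other scalings. Over all 57 members, all 3 THAL-SNS-032 libraries lay below all 3 of SNS-032 in 8, where 15.9% of all genes did so. They are the 8 lower genes named here, which were picked by calls on the same libraries, so this adds no support to those calls. SF3B1, which holds the branch point adenosine, had 52.9, 60.2 and 53.0 FPKM under THAL-SNS-032, against 76.3, 130 and 126 under SNS-032, and no library overlapped (-0.95, SE 0.20, limma adjusted p = 0.00245). SF3B4 differed by -1.08 (SE 0.21, adjusted p = 0.00127) and PRPF39, a U1-associated protein, by -1.07 (SE 0.20, adjusted p = 0.000987). PRPF39 had 13.1, 15.7 and 12 FPKM under THAL-SNS-032 and 20.5, 37.5 and 33.1 under SNS-032. PRPF4B, a kinase of tri-snRNP proteins, had 12.4, 13.9 and 12.4 FPKM under THAL-SNS-032 and 19.6, 34.0 and 32.8 under SNS-032, a difference of -1.06 (SE 0.19). PRPF38B differed by -0.82 and CDC5L by -0.75 (SE 0.20 each). These 6 calls held with each library left out in turn, although CDC5L missed the threshold when only the 6 libraries of the pair were fitted (adjusted p = 0.0504).

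SF3A2 and LSM1, also called lower, were less secure. SF3A2, named after its value was seen, differed by -0.70, and LSM1 by -0.70. Both lost their calls without SNS-032 replicate 2 (-0.52 for SF3A2 and -0.53 for LSM1) or 3 (-0.62 and -0.60), or without THAL-SNS-032 replicate 1 (-0.61 and -0.63) or 3 (-0.73 and -0.71). The 1 gene called higher was LSM14B, an LSM-domain protein of cytoplasmic RNA granules, with 17.3, 19.8 and 16.8 FPKM under THAL-SNS-032 and 8.05, 14.7 and 11.9 under SNS-032 (0.63, SE 0.19, limma adjusted p = 0.0228). Its call was lost without THAL-SNS-032 replicate 1 (0.65) or 2 (0.56). These 3 also missed the threshold when only the libraries of the pair were fitted, at adjusted p values between 0.0755 and 0.130, and SF3A2 and LSM1 missed it without the filter (adjusted p = 0.0501 and 0.0536).

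No Sm gene passed the limma test between the pair. The 7 Sm genes had a median difference of 0.23, and each 95% interval lay within 2-fold and included 0. BCAS2 differed by 0.23 (95% interval -0.13 to 0.60, limma adjusted p = 0.312) and PRPF31, which binds the U4 RNA, by 0.45 (95% interval 0.02 to 0.88, adjusted p = 0.105). All 3 THAL-SNS-032 libraries of PRPF31 lay above all 3 of SNS-032, as for 4 of the members and 25.5% of all genes. PRPF31 passed without SNS-032 replicate 2 (0.61), and PRPF31 and BCAS2 both passed as higher with each library scaled to its own median (0.54 and 0.32).

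**Figure D3:**
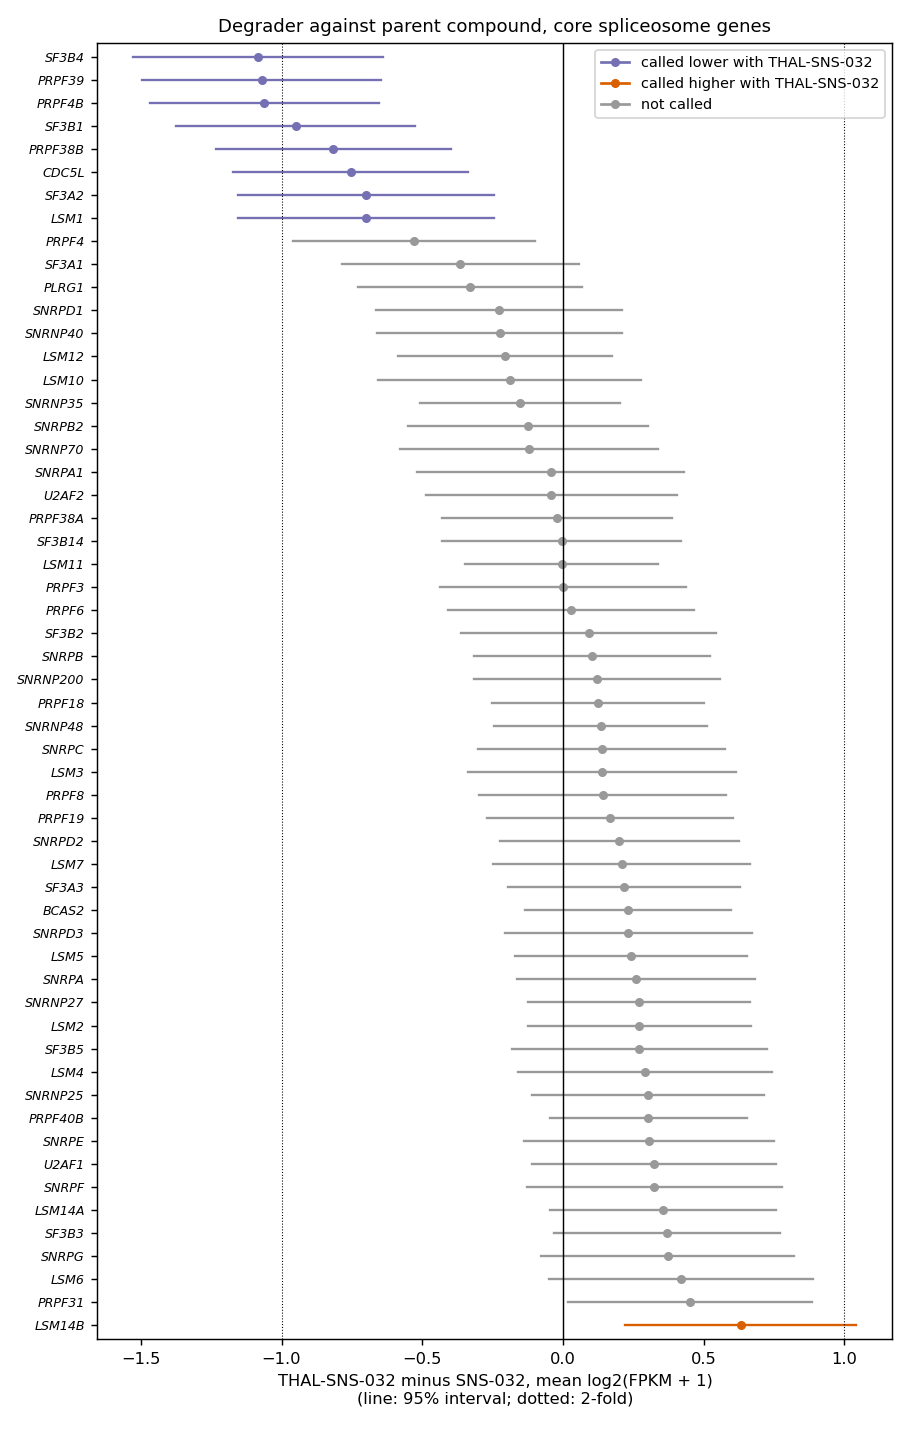
THAL-SNS-032 minus SNS-032 in mean log2(FPKM + 1) for 56 of the 57 tested core spliceosome genes (points) with the 95% interval (lines), sorted by value, with dotted lines at 2-fold. The 8 genes drawn that were called lower are at the top, from SF3B4 (-1.08) to LSM1 (-0.70), and LSM14B (0.63) at the bottom is called higher.

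Against NVP-2, both other compounds left higher levels. With THAL-SNS-032, 55 of 57 members were higher, 0 lower and 2 did not pass, where 70% of all genes tested were called higher and 0.993% lower. With SNS-032, 45 were higher, 0 lower and 12 did not pass, where 52.6% were called higher and 0.782% lower. The median member difference was 0.97 for THAL-SNS-032 and 0.92 for SNS-032, beside 0.64 and 0.48 for all genes tested. Of 57 members, 45 lay above the median gene in each comparison. The log2(FPKM + 1) scale shrinks differences between low levels, and members had the higher median in DMSO (155 against 28 FPKM). How much of the gap comes from this scale was not tested. These comparisons share the NVP-2 libraries. No member had a negative difference in either, so none was lower at an unadjusted p under 0.05. Without SNS-032 replicate 1, 56 members were higher under SNS-032, as were 81.6% of all genes, and the median was 1.15. With each library scaled to its own median, 34 were higher and 7 lower under THAL-SNS-032, beside 29.4% and 38% of all genes, and 27 and 14 under SNS-032, beside 24.8% and 58.9%. With quantile normalization the members numbered 29 and 13 under THAL-SNS-032, beside 31.1% and 35.6%, and 27 and 16 under SNS-032, beside 29.1% and 53.9%.

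SF3B4 stood at the end of both. It was 12-fold higher under THAL-SNS-032 than under NVP-2 by the ratio of means (33.1 ± 4.53 and 2.76 ± 0.218 FPKM, SD, n = 3; 3.18 on the log2 scale, SE 0.21, limma adjusted p = 1.48e-07). With SNS-032 it was 26.5-fold higher (73.0 ± 20.9 FPKM; 4.26, adjusted p = 1.88e-09). SNRNP40 differed from NVP-2 by 1.78 under THAL-SNS-032 and 2.0 under SNS-032. SF3B1 was 4.27-fold higher under SNS-032 than under NVP-2 (2.02, SE 0.20), and LSM1 differed by 1.77 in the same comparison. SF3B2, the SF3b partner of SF3B4, differed by 1.46 between THAL-SNS-032 and NVP-2, and SNRPD1 by 1.45.

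At the other end, PRPF38B did not pass the test between THAL-SNS-032 and NVP-2 on the deposited scale. It had 7.41, 8.68 and 7.36 FPKM under THAL-SNS-032 and 6.68, 7.62 and 7.36 under NVP-2, and the libraries overlapped (0.10, 95% interval -0.32 to 0.52, limma adjusted p = 0.654). With each library scaled to its own median it was called lower under THAL-SNS-032 (-0.60, adjusted p = 1.89e-07), and with quantile normalization too (-0.71, adjusted p = 3.37e-08). The other member that did not pass was LSM11, near the floor. PRPF40B did not pass between SNS-032 and NVP-2, with 1.19, 2.55 and 2.30 FPKM under SNS-032 and 1.46, 1.80 and 1.65 under NVP-2 (0.16, 95% interval -0.19 to 0.51, adjusted p = 0.415). It passed as higher without SNS-032 replicate 1 (0.38), and as lower with each library scaled to its own median (-0.63) and with quantile normalization (-0.54).

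**Figure D4:**
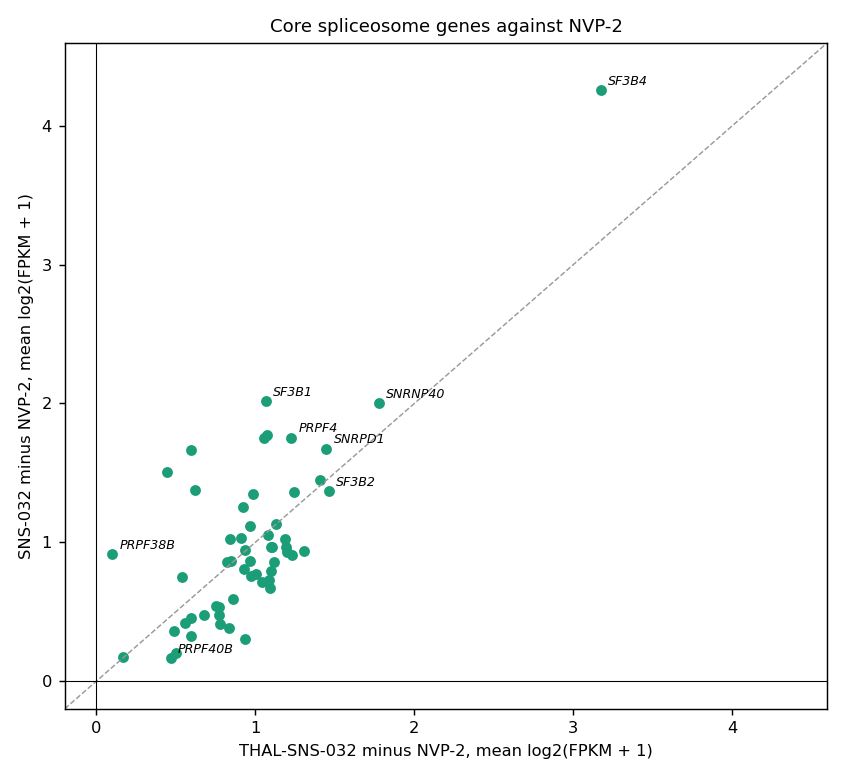
Each point is 1 of 56 of the 57 tested core spliceosome genes, showing THAL-SNS-032 minus NVP-2 on the horizontal axis and SNS-032 minus NVP-2 on the vertical axis, both in mean log2(FPKM + 1), and a dashed line where both are equal. SF3B4 (3.18 and 4.26) is far from the other genes, SF3B1 lies above the line, and all points are above 0.

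Outside the named families, 66 tested genes of splicing factors and snRNP assembly were also all called lower with each compound, as were 94.6%, 94.8% and 97.1% of all genes in the same 3 comparisons. Their median difference was -2.15 under SNS-032, -2.36 under THAL-SNS-032 and -3.41 under NVP-2. The 18 genes that assemble snRNPs had medians of -2.61, -3.35 and -4.19. Among them GEMIN6, a subunit of the SMN complex that loads Sm rings, had 2.97 ± 0.940 FPKM under SNS-032, 4.47 ± 1.18 under THAL-SNS-032 and 0.939 ± 0.245 under NVP-2, against 109 ± 1.70 in DMSO. DDX20, the helicase of that complex, had 0.132 ± 0.0105 FPKM under NVP-2, near the floor, against 36.8 ± 2.72 in DMSO. The peptidyl-prolyl isomerase gene PPIH, of the tri-snRNP, kept the most under THAL-SNS-032 and NVP-2, at 48.7% and 26.3% of DMSO. Between the degrader and its parent, 22 of the 66 were lower, 2 were higher (EFTUD2 and CWC27, named after their values were seen) and 42 did not pass, where 16.7% of all genes were lower and 13.4% higher. Without SNS-032 replicate 1, 30.1% of all genes were lower. The counts of the 66 were not repeated without that library or with other scalings. SART3, which helps U4 and U6 pair again after splicing, was called lower and had 3.84 ± 0.668 FPKM under THAL-SNS-032 and 19.9 ± 5.85 under SNS-032 (-2.08).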

How the data were processed

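Poly(A) RNA of MOLT4 cells was sequenced from stranded libraries with ERCC spike-ins added at lysis, per the labels' protocols. Per the submitters' processing notes, HISAT and Cufflinks 2.0.0 were used with hg19. The annotation is not given in the sources used here. The authors deposited FPKM per gene, on a scale set across libraries by steps not stated. The table holds no counts, so the depth behind a value is unknown and counting intervals are left out.

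Of 23713 rows, 92 ERCC rows and the lower row of each of 2 repeated symbols were left out. Genes with a mean of at least 1 FPKM were tested on log2(FPKM + 1) with limma 3.58.1 in R 4.3.3 (lmFit, eBayes with trend, 8 residual degrees of freedom), in 6 two-sided comparisons adjusted by Benjamini-Hochberg over all 11381 genes. The code was run on simulated data with independent noise per gene and a small set of genes lowered under SNS-032. That setting has no shift of a whole library and no change in most genes, so it cannot vouch for the calls given here. Intervals are 95% intervals of the fit. Figures used matplotlib 3.10.9 in Python 3.11.15.

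The members, role groups, lists and named genes were chosen with earlier results of these data known. Named genes are the members with the lowest and highest differences in each comparison, the highest in DMSO in each role, and any not called lower against DMSO (there were none). A few are picked from those, and others are said to be outside. The values of 1 member are counted but not reported here, and the figures leave it out. Alternatives changed 1 choice at a time: pseudocount, filter, library scaling, trend, robust, pair-only fit, replicate block, a 2-fold minimum, and each replicate left out, which keeps the spread estimated from all remaining libraries. Leaving out SNS-032 replicate 1 from comparisons that do not use it was added after seeing the data.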

Additional observations from a re-analysis of the deposited data

How the results depend on the processing

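Against DMSO, between 55 and 58 members were called lower with each compound under other pseudocounts, filters, equal spike-in medians, trend settings, pair-only fits and each left-out library, and 39 to 55 when a change of more than 2-fold was required. With each library scaled to its own median, the median member differed from DMSO by 0.040 under SNS-032, 0.17 under THAL-SNS-032 and -0.071 under NVP-2. Members called higher then numbered 26, 30 and 22, and those called lower 17, 17 and 28, in the same order of compounds. The differences turned to 1.32, 1.69 and 1.63 for LSM4, 1.14, 1.35 and 1.12 for SNRNP200 and 1.39, 1.68 and 1.71 for SNRPD2, and SF3B4 to 1.05 under SNS-032 and 0.057 under THAL-SNS-032. Between compounds, 31 were higher and 14 lower for THAL-SNS-032 over SNS-032, 34 and 7 for THAL-SNS-032 over NVP-2 (median 0.26, PRPF38B -0.60) and 27 and 14 for SNS-032 over NVP-2 (median 0.13, PRPF40B -0.63). Of all genes, 5989, 6515 and 6789 were then higher than in DMSO and 3537, 3319 and 3198 lower. With quantile normalization, the median member differed from DMSO by -0.21 under SNS-032, -0.21 under THAL-SNS-032 and -0.31 under NVP-2. Members called higher then numbered 21, 19 and 19, and those called lower 31, 32 and 34, in the same order of compounds. The differences turned to 0.77, 0.94 and 1.09 for LSM4, 0.92, 0.93 and 0.91 for SNRNP200 and 0.49, 0.64 and 0.93 for SNRPD2, and SF3B4 to 0.83 under SNS-032. Between compounds, 23 were higher and 19 lower for THAL-SNS-032 over SNS-032, 29 and 13 for THAL-SNS-032 over NVP-2 (median 0.16, PRPF38B -0.71) and 27 and 16 for SNS-032 over NVP-2 (median 0.10, PRPF40B -0.54). Of all genes, 4726, 5228 and 5365 were then higher than in DMSO and 4700, 4456 and 4393 lower. A pseudocount of 5 FPKM gave member medians of -1.96 for THAL-SNS-032 and -2.69 for NVP-2 against DMSO, and 0.82 between them. Requiring more than a 2-fold change left 0 higher and 0 lower for THAL-SNS-032 over SNS-032, 2 higher for THAL-SNS-032 over NVP-2 and 9 for SNS-032 over NVP-2. Fitting only the pair left 0 higher and 5 lower for THAL-SNS-032 over SNS-032. Leaving out 1 library at a time gave 0 to 4 higher, 6 to 19 lower and a median of -0.12 to 0.25 in that comparison, 47 to 55 higher for THAL-SNS-032 over NVP-2, and 40 to 56 higher for SNS-032 over NVP-2. The negative median and the 19 lower calls came without SNS-032 replicate 1, the 4 higher calls without its replicate 2, the 0 higher calls without THAL-SNS-032 replicate 1 or 2, and the 6 lower calls without SNS-032 replicate 3 or THAL-SNS-032 replicate 1 or 3. Replicate numbers are shared between groups, and the labels tie them to nothing else. Across genes, the deviations of same-numbered libraries from their group means had correlations of -0.15 to 0.17, not over 0.1 in every pair, so the numbers were not taken to pair the libraries. That measure leaves out a shift of a whole library, and replicate 1 had the lowest median gene shift in all 4 groups (-2.32 under SNS-032, -1.96 under THAL-SNS-032, -2.61 under NVP-2 and -0.083 in DMSO). With the replicate number as a block, 2 members were higher and 10 lower for THAL-SNS-032 over SNS-032, with PRPF31 added at an adjusted p of 0.0336, and 2308 of all genes were higher, against 1525 without it. The cause of each of these moves was not tested. Unknown depth, 3 libraries a group and a floor near 0.1 FPKM limit what small differences between compounds can show.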
